A study of Mus musculus with 12 samples.

Results

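Genes of the p53 pathway were followed through RNAi against *Kdm6a* in a female and a male mouse ES cell line. The list held 34 genes known from the pathway. It named the negative regulators and relatives of p53 and its reported targets in cell cycle arrest, apoptosis, DNA repair and metabolism. The list was chosen with earlier results of these data known, so its counts set beside those of all genes are a description. A gene was included where a probe set carried its symbol alone and where its mean linear value over all arrays was at least 0.1 of the array mean. Of the 34 genes, 31 had such a probe set and 30 passed the minimum, out of 15309 genes that passed it among 19938 named genes. *Fas*, a death receptor gene, lay just outside at 0.0536 of the array mean, and *Dram1* just inside at 0.192. *Cdkn1a*, the gene of the cyclin-dependent kinase inhibitor p21, was covered only by a probe set shared with a second gene and was not assigned a value. *Bax* and the gene of p53 itself were not analysed here.

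*Kdm6a* encodes an X-linked histone demethylase that removes a repressive methyl mark from histone H3. RNA from undifferentiated ES cells was hybridised to 12 Affymetrix Mouse Gene 1.0 ST arrays. PGK12.1, a female line from a cross of 129 and (129 × PGK)F1 mice, was used in 4 experiments, and WD44, a male line of BL6 origin, in 2. Each experiment had 1 array of cells given a pool of *Kdm6a* siRNAs and 1 array of control cells given siRNAs without a target. All cells of both lines, controls included, were thus transfected, and all were taken off embryonic fibroblast feeders on gelatin. In PGK12.1, experiments 1 and 2 were double RNAi (100 pmol siRNA, then 400 pmol, with harvest at 72 h), and experiments 3 and 4 were single RNAi (100 pmol, harvest at 48 h). Both WD44 experiments were single RNAi of 100 pmol and 48 h. Each sex is represented by 1 line, so sex, strain and line cannot be told apart. The study calls its array experiments independent RNAi experiments, without saying whether each began from a separate culture, and p-values therefore measure the spread between these experiments.

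p53 is a transcription factor that is kept low by the ubiquitin ligase MDM2 and its relative MDM4 and that accumulates when DNA is damaged or cells are stressed. It binds pairs of a short half-site and activates genes that halt the cell cycle, repair DNA, adjust metabolism or start apoptosis, and *Mdm2* is itself such a target, which closes a negative feedback loop. Mouse ES cells hold abundant p53 and are known for a weak cell cycle checkpoint, and p53 activation in them lowers *Nanog* and favours differentiation.

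The promoters of the genes were searched for the p53 half-site, 10 bases long, on both strands and from 250 bases before to 50 bases after the RefSeq transcription start (GRCm38.p6). A promoter window was listed for 22 of the 30 genes. At least 1 half-site lay in the windows of 8 of them, *Aen*, *Ccng1*, *Ei24*, *Gadd45a*, *Gtse1*, *Mdm2*, *Polk* and *Sesn1*, while 8.42% of the 12061 tested genes with a window had one. Genes with several windows had more chances of a match, and with the first listed window alone 6 genes had a half-site. None of the 22 had a pair of half-sites at most 13 bases apart in these windows, and 0.0497% of the tested genes did. *Cdkn1a*, listed but without a value here, did have such a pair (window chr17:29090729-29091028, plus strand). Another listed *Cdkn1a* window (chr17:29093519-29093818) held no half-site. A match is a stretch of letters and does not show binding. The half-sites of *Ccng1* and *Gadd45a*, both called higher in PGK12.1, of *Mdm2*, the feedback target, and of *Polk*, a repair polymerase gene, are given in capitals with 10 bases on each side, read 5′ to 3′ on the strand of the gene.
Ccng1: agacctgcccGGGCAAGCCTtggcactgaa
Gadd45a: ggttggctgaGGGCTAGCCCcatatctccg
Mdm2: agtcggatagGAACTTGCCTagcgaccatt
Polk: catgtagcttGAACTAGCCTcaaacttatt
These half-sites began 185 bases before the start in *Ccng1* (window chr11:40755237-40755536, minus strand), 40 in *Gadd45a* (chr6:67037358-67037657, minus strand), 186 in *Mdm2* (chr10:117710709-117711008, minus strand) and 231 in *Polk* (chr13:96519138-96519437, minus strand). The *Polk* window belongs to an internal start, and the window at the outermost start of *Polk* (chr13:96542530-96542829) held no half-site. Windows were listed without a half-site for the called genes *Plk2* and *Eda2r*. *Trp53inp1* and *Xpc* were not in the promoter table used here.

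*Kdm6a* itself was lower after RNAi in every experiment, by log2 changes of -1.27, -1.50, -1.42 and -0.96 in PGK12.1 and of -0.94 and -0.92 in WD44. A log2 change is the value on the *Kdm6a* RNAi array minus that on the control array of the same experiment. The mean change in PGK12.1 was -1.29 (adjusted p = 0.000293, limma), and that in WD44 was -0.93 (adjusted p = 0.13). Across all genes tested, 568 were higher and 322 lower past an adjusted p of 0.05 in PGK12.1, while 0 passed in WD44, where 2 experiments were measured. Array medians ran from 6.15 to 6.48 on the log2 scale in PGK12.1 experiments 1 to 3 and from 8.03 to 8.21 in PGK12.1 experiment 4 and WD44, so levels given below are set over the mean of their own array and were not tested between experiments or lines. The 9 ES cell markers, *Nanog* and *Pou5f1* among them, summed to 68.2 to 95.4 array means after *Kdm6a* RNAi and 68.3 to 97.7 in control cells of PGK12.1, and to 56.6 to 58.8 and 57.3 to 59.4 in WD44. Of these 9, *Utf1*, a chromatin factor of undifferentiated cells, fell in PGK12.1 (mean log2 change -0.22, lower in all 4 experiments, adjusted p = 0.0248), and the other 8 did not pass. In WD44, 7 of the 9 were lower in both experiments, beside 33.1% of all genes, and 0 passed.

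In PGK12.1, 6 of the 30 p53 pathway genes rose after *Kdm6a* RNAi and none fell. They were *Trp53inp1*, *Eda2r*, *Ccng1*, *Plk2*, *Xpc* and *Gadd45a*, with mean increases of 1.15-fold to 1.28-fold. Of all genes tested, 3.71% rose and 2.10% fell. At an unadjusted p under 0.05, 14 of the 30 were higher and 1 was lower, *Dram1*, beside 13.5% and 9.18% of all genes. The log2 change was above 0 in all 4 experiments for 14 genes, beside 16.3% of all genes, and below 0 in all 4 for 1 gene, beside 10.6%. The median over the 30 genes was 0.10 on the log2 scale, with single genes between -0.13 and 0.36, and the median over all genes was 0.01. By experiment the median was 0.14, 0.02, 0.12 and 0.05 for the pathway genes, and in experiment 2 it lay below the 0.03 of all genes. The plot of all log2 changes shows the 6 genes in the context of the other 24.

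**Figure D1:**
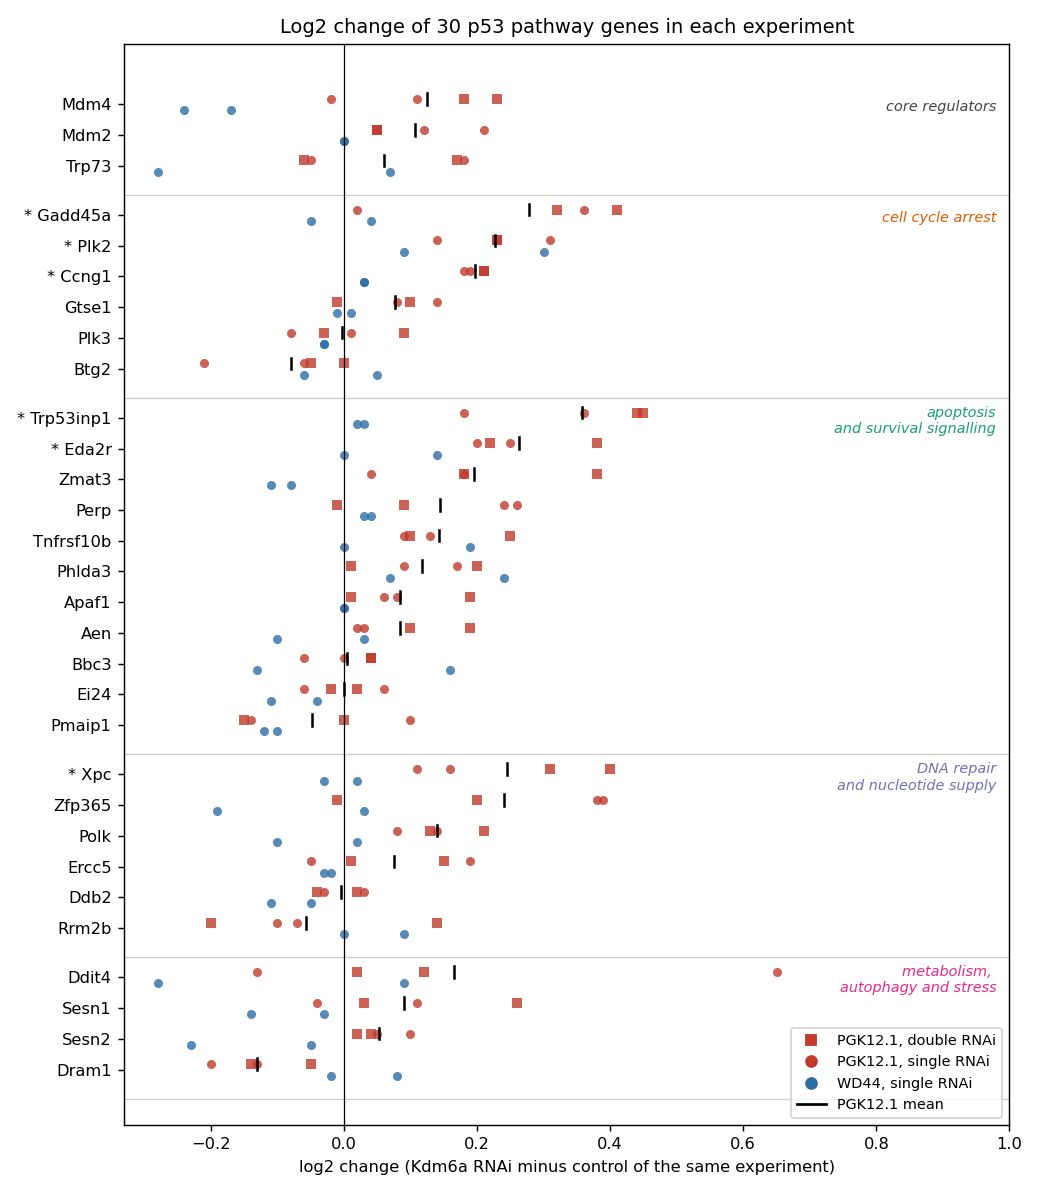
Log2 change (value after *Kdm6a* RNAi minus the control value of its experiment) of the 30 p53 pathway genes, ordered by role, with squares for PGK12.1 double RNAi, red circles for PGK12.1 single RNAi, blue circles for WD44 and a black bar for the PGK12.1 mean; an asterisk marks the 6 genes past an adjusted p of 0.05 in PGK12.1. The red points of these 6 genes all lie above 0, between 0.02 and 0.45, and *Ddit4* has the widest spread, from -0.13 to 0.65.

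None of the 3 core regulators measured passed the test in PGK12.1. *Mdm2*, the main ubiquitin ligase for p53, had levels of 2.06, 2.24, 2.96 and 2.91 array means after *Kdm6a* RNAi and 2.02, 2.14, 2.72 and 2.51 in control cells. It was higher in all 4 experiments by a mean log2 change of 0.11 (adjusted p = 0.19), and both WD44 changes were 0.00. *Mdm4*, which blocks the transactivation domain of p53, had levels of 2.14, 2.16, 2.26 and 2.27 after *Kdm6a* RNAi and 1.85, 1.89, 2.09 and 2.29 in control cells of PGK12.1. In WD44 its levels were 1.65 and 1.76 after *Kdm6a* RNAi and 1.92 and 1.97 in control cells. The direction of *Mdm4* was thus upward in 3 of 4 PGK12.1 experiments and downward in both WD44 experiments. *Trp73*, the gene of the p53 relative p73, had log2 changes of 0.17, -0.06, 0.18 and -0.05 in PGK12.1 (mean 0.06, adjusted p = 0.645) and 0.07 and -0.28 in WD44, with no common direction in either line.

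Among genes of cell cycle arrest, 3 of 6 rose in PGK12.1, beside 3.71% of all genes. *Ccng1*, which encodes cyclin G1 and is part of a feedback on MDM2, had levels of 8.43, 8.64, 7.55 and 7.89 array means after *Kdm6a* RNAi and 7.39, 7.41, 6.65 and 6.91 in control cells. The log2 changes, 0.21, 0.21, 0.18 and 0.19, had the smallest SD of the 6 called genes (0.015). The mean log2 change was 0.20 (SE 0.0396, 1.15-fold, adjusted p = 0.0207). In WD44 the levels of *Ccng1* were 9.31 and 9.69 after *Kdm6a* RNAi and 8.99 and 9.41 in control cells.

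*Gadd45a*, a growth arrest gene induced by DNA damage, had levels of 2.47, 2.59, 2.82 and 1.18 after *Kdm6a* RNAi and 2.01, 1.93, 2.19 and 1.16 in control cells of PGK12.1. The pair of experiment 4 stood apart, with low levels on both arrays and a log2 change of 0.02, against 0.32, 0.41 and 0.36 in the other experiments. The mean log2 change was 0.28 (SE 0.0636, 1.21-fold, adjusted p = 0.0344). *Plk2*, a polo-like kinase gene, had levels of 1.3, 1.34, 1.91 and 0.574 after *Kdm6a* RNAi and 1.12, 1.13, 1.54 and 0.521 in control cells. Its level was higher after RNAi within every experiment, while the ranges of both conditions overlapped across experiments. The mean log2 change was 0.23 (SE 0.05, 1.17-fold, adjusted p = 0.029). The other 3 arrest genes had mean changes of 0.08 (*Gtse1*), 0.00 (*Plk3*) and -0.08 (*Btg2*), and none passed the test.

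Of the 11 genes of apoptosis and survival signalling, 2 rose in PGK12.1, beside 3.71% of all genes, and they had the smallest p-values of the 30. *Trp53inp1*, whose protein promotes p53-dependent apoptosis and autophagy, had levels of 5.19, 5, 6.13 and 3.68 array means after *Kdm6a* RNAi and 3.88, 3.63, 4.77 and 3.24 in control cells. The log2 changes were 0.44, 0.45, 0.36 and 0.18, lowest in experiment 4. Their mean was 0.36 (SE 0.0526, 95% interval 0.24 to 0.48, 1.28-fold, adjusted p = 0.00593). In WD44 *Trp53inp1* had levels of 5.34 and 5.12 after *Kdm6a* RNAi and 5.16 and 5.01 in control cells, and the log2 changes were 0.03 and 0.02.

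*Eda2r*, an X-linked gene for a receptor of the TNF receptor family that binds ectodysplasin, had levels of 4.25, 4.26, 4.58 and 2.91 after *Kdm6a* RNAi and 3.31, 3.63, 3.85 and 2.53 in control cells of PGK12.1. Experiment 4 again had the lowest levels on both arrays. The log2 changes of 0.38, 0.22, 0.25 and 0.20 gave a mean of 0.26 (SE 0.0481, 1.20-fold, adjusted p = 0.0139). Its WD44 levels were lower throughout, at 1.24 and 1.35 after *Kdm6a* RNAi and 1.22 and 1.22 in control cells, a difference between the lines that carries the scale of the arrays and was not tested.

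The other 9 apoptosis and survival genes did not pass. *Zmat3*, a zinc finger gene whose protein binds RNA, came closest, with log2 changes of 0.38, 0.18, 0.18 and 0.04 in PGK12.1 (mean 0.195, adjusted p = 0.0707) and -0.11 and -0.08 in WD44. *Perp* (0.145), *Tnfrsf10b* (0.14) and *Phlda3* (0.12) had mean changes with an unadjusted p under 0.05 and adjusted p-values of 0.125 to 0.198. *Bbc3* and *Pmaip1*, which encode the pro-apoptotic proteins PUMA and NOXA, had mean changes of 0.01 and -0.05, and *Apaf1*, *Aen* and *Ei24* had 0.09, 0.09 and 0.00.

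**Figure D2:**
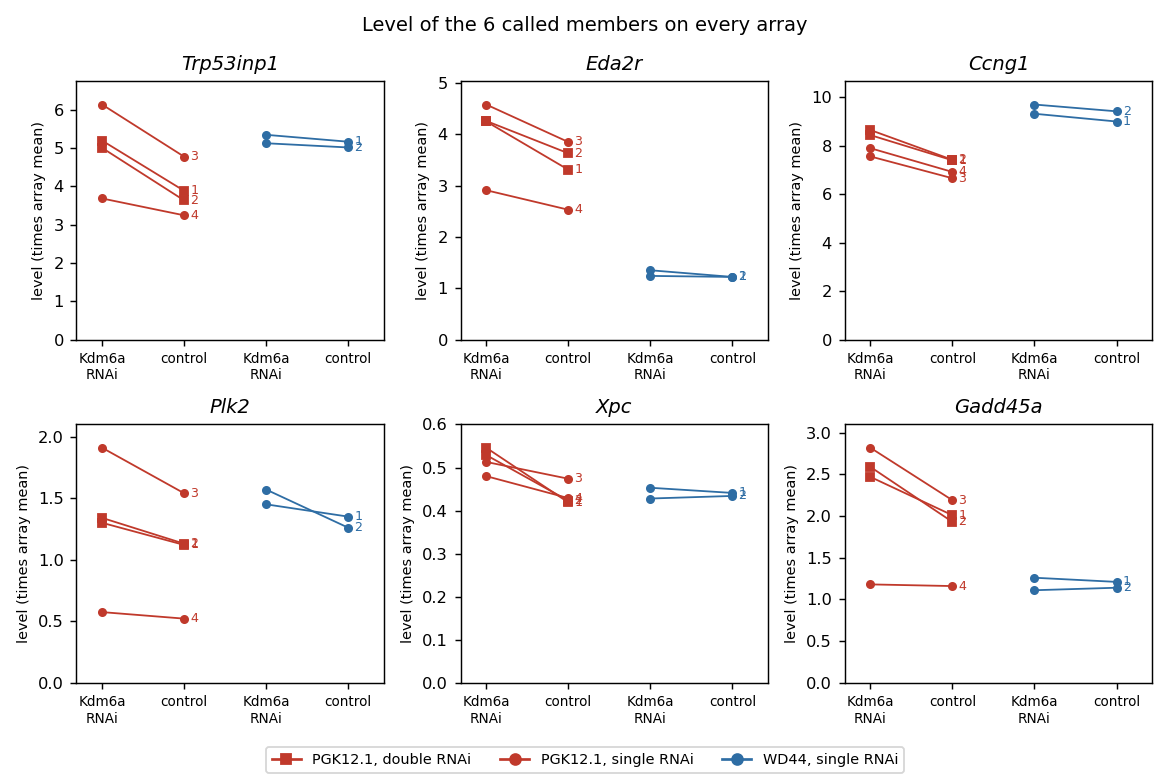
Level (linear value over the mean of its array) of the 6 genes past the threshold in PGK12.1, on every array; each line joins the *Kdm6a* RNAi array (left) and the control array (right) of 1 experiment, numbered beside it, with PGK12.1 in red and WD44 in blue. Every red line falls from left to right, which is a higher level after *Kdm6a* RNAi, and the genes were picked by their test in PGK12.1. The blue lines fall as well, apart from those of *Gadd45a* (1.11 after *Kdm6a* RNAi and 1.14 in control cells) and *Xpc* (0.428 and 0.434) in experiment 2. The blue lines of *Plk2* (1.57 and 1.26) and *Eda2r* (1.35 and 1.22) in experiment 2 had log2 changes of 0.30 and 0.14. The log2 changes of the other blue lines were smaller.

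In the group of DNA repair and nucleotide supply, 1 of 6 genes rose in PGK12.1, beside 3.71% of all genes. *Xpc*, whose protein recognises bulky DNA lesions in nucleotide excision repair, had levels of 0.546, 0.529, 0.513 and 0.48 array means after *Kdm6a* RNAi and 0.419, 0.423, 0.474 and 0.429 in control cells. Each level after *Kdm6a* RNAi was above the control level of its own experiment. The mean log2 change was 0.245 (SE 0.0545, 1.19-fold, adjusted p = 0.0306), with 0.40 and 0.31 after double RNAi and 0.11 and 0.16 after single RNAi. *Zfp365*, a p53 target in the response to replication stress, had log2 changes of 0.20, -0.01, 0.38 and 0.39 (mean 0.24, adjusted p = 0.0765). *Polk*, the gene of a translesion DNA polymerase, had 0.13, 0.21, 0.08 and 0.14 (mean 0.14, adjusted p = 0.0955). *Zfp365* was thus spread over a wider range than *Polk*, and its changes were largest where those of *Xpc* were smallest. *Ercc5*, the excision repair endonuclease XPG, *Ddb2*, a sensor of UV damage, and *Rrm2b*, a ribonucleotide reductase subunit, had mean changes of 0.08, -0.01 and -0.06.

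None of the 4 genes of metabolism, autophagy and stress passed the test in PGK12.1. *Dram1*, a lysosomal gene of autophagy, was the single gene of the 30 with a lower value in all 4 experiments, with log2 changes of -0.14, -0.05, -0.20 and -0.13 (mean -0.13, adjusted p = 0.12). *Ddit4*, whose protein REDD1 inhibits mTOR, had 0.12, 0.02, 0.65 and -0.13, with a mean of 0.165 (adjusted p = 0.418) that was 0.003 without experiment 3. The sestrin genes *Sesn1* and *Sesn2*, whose proteins restrain mTOR and oxidative stress, had means of 0.09 (adjusted p = 0.372) and 0.05 (adjusted p = 0.538).

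Set side by side, the median log2 change in PGK12.1 was 0.14 for the arrest genes, 0.12 for apoptosis and survival, 0.11 for repair, 0.11 for the core regulators and 0.07 for metabolism, autophagy and stress. In WD44 the medians were 0.00, 0.015, -0.03, -0.105 and -0.09 in the same order of groups. The groups hold 3 to 11 genes, and no test was made between them. By experiment, the arrest and apoptosis genes had medians above 0 in all 4 PGK12.1 experiments, the repair genes were at 0.00 in experiment 2, and the core regulators and the metabolism genes were below 0 in experiment 4. The order of the groups therefore changed between experiments.

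**Figure D3:**
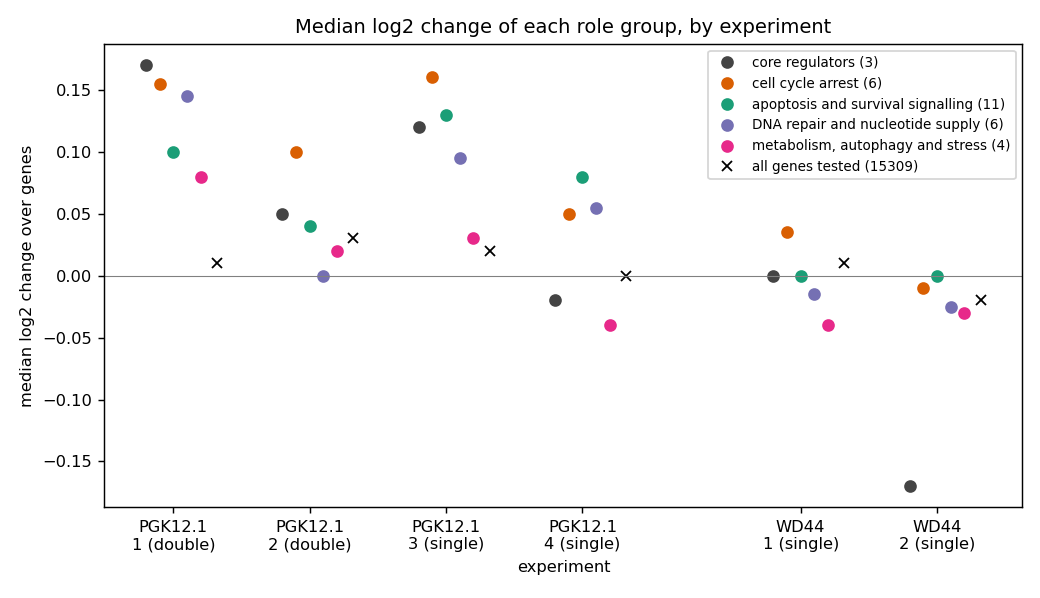
Median log2 change over the genes of each role group (y axis) in each of the 6 experiments (x axis, with double or single RNAi), with the number of genes in the legend and crosses for all genes tested. In PGK12.1 the arrest and apoptosis groups lie above the crosses in every experiment, and in WD44 all groups but the core regulators in experiment 2 (-0.17) lie within 0.05 of 0.

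In WD44, none of the 30 genes passed the test, nor did any of the 15309 genes (0.00% in either direction). At an unadjusted p under 0.05, 1 of the 30 was higher, *Plk2*, and 1 was lower, *Mdm4*, beside 8.84% and 7.23% of all genes. *Plk2* had log2 changes of 0.09 and 0.30 (mean 0.195, adjusted p = 0.241), and *Mdm4* had -0.24 and -0.17 (mean -0.205, adjusted p = 0.225). Both *Plk2* changes were positive, as were all 4 in PGK12.1. In both WD44 experiments 5 of the 30 genes were higher, beside 31.3% of all genes, and 9 were lower, beside 33.1%. *Phlda3*, a target whose protein competes with AKT at the membrane, had 0.24 and 0.07 (mean 0.155, adjusted p = 0.319). *Ddb2* had -0.11 and -0.05 (mean -0.08, adjusted p = 0.527). *Sesn2* had -0.05 and -0.23 (mean -0.14, adjusted p = 0.322). The median was -0.005 over the 30 genes and -0.005 over all genes. Of the 30 means, 10 were above 0 in WD44, beside 7286 of all 15309 genes. In PGK12.1, 23 were above 0, beside 8184 of all genes. The WD44 means of *Mdm2*, *Gtse1* and *Apaf1* were 0.00.

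The difference of the effects, PGK12.1 minus WD44, was tested directly, and 0 of the 30 genes passed (0.00% of all genes in either direction). At an unadjusted p under 0.05, 10 of the 30 had a more positive effect in PGK12.1 and 0 a more negative one, beside 11.0% and 10% of all genes. *Mdm4* had the smallest p of the 30, with a difference of 0.33 (SE 0.0871, adjusted p = 0.1), followed by *Trp53inp1* with 0.33 (SE 0.0911, adjusted p = 0.104) and *Zmat3* with 0.29 (adjusted p = 0.139). For the other called genes the difference was 0.28 for *Gadd45a*, 0.25 for *Xpc*, 0.19 for *Eda2r* and 0.17 for *Ccng1*, with adjusted p-values of 0.175 to 0.224. *Plk2* had a difference of 0.03 with a 95% interval of -0.16 to 0.23 (adjusted p = 0.856). All 4 PGK12.1 changes lay above both WD44 changes in 11 of the 30 genes, beside 17.9% of all genes, and below both in 1, *Dram1*, beside 13.6%. The difference also holds the 2 double RNAi experiments, which WD44 did not have. With the single RNAi experiments only, which leave fewer samples, 0 of the 30 genes passed. After single RNAi, *Trp53inp1* changed by 0.36 and 0.18 in PGK12.1, against 0.03 and 0.02 in WD44. *Mdm4* changed by 0.11 and -0.02, against -0.24 and -0.17. The *Kdm6a* change was larger in PGK12.1 by 0.36 on the log2 scale (adjusted p = 0.171). Its part in the difference was not tested.

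**Figure D4:**
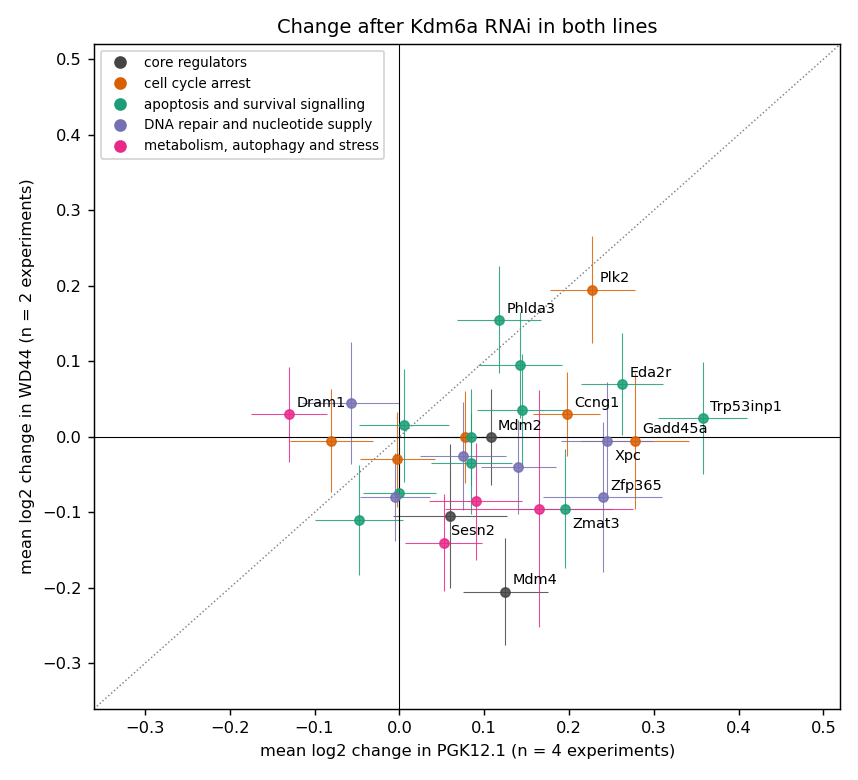
Mean log2 change after *Kdm6a* RNAi in PGK12.1 (x axis, 4 experiments) and WD44 (y axis, 2 experiments) for the 30 genes, coloured by role, with limma standard errors as bars and a dotted line of equal change. *Trp53inp1* lies farthest to the right (0.36 and 0.025), *Plk2* lies near the dotted line (0.23 and 0.195), and *Mdm4* has the lowest WD44 mean (-0.205).

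Within PGK12.1, double minus single RNAi gave 0 of 30 genes past the threshold (0.00% of all genes). At an unadjusted p under 0.05, *Xpc* had a more positive effect after double RNAi (difference 0.22, adjusted p = 0.673) and *Zfp365* a less positive one (-0.29, adjusted p = 0.673), beside 3.91% and 3.40% of all genes. Dose and time cannot be told apart in this comparison. The scale of the arrays goes with it only in part. Array medians were 6.15 to 6.21 in experiments 1 and 2, 6.47 and 6.48 in experiment 3, and 8.20 and 8.21 in experiment 4. Experiments 3 and 4 had log2 changes of 0.11 and 0.16 for *Xpc* and of 0.38 and 0.39 for *Zfp365*.

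The rest of the pathway was taken from a list of 69 entries, alternative spellings of 2 genes included, of which 54 were tested. None of the 22 upstream kinases, cofactors and mediators passed in PGK12.1, and of 32 further reported targets 3 rose and 0 fell, beside 3.71% and 2.10% of all genes. *Cpt1c*, a carnitine palmitoyltransferase gene, had log2 changes of 0.30, 0.25, 0.30 and 0.23 in PGK12.1 (mean 0.27, SE 0.0412, adjusted p = 0.0069) and -0.03 and 0.03 in WD44. *Ptp4a3*, a phosphatase gene, had 0.20, 0.32, 0.08 and 0.26 (mean 0.215, adjusted p = 0.0384), and *Psrc1*, a gene of a spindle protein, had 0.23, 0.21, 0.27 and 0.08 (mean 0.1975, adjusted p = 0.0428). All 3 were picked by a test on the same PGK12.1 experiments and were higher in each of them. *Cpt1c* stayed past the threshold when any single experiment was left out, while *Ptp4a3* was lost without experiment 1, 2 or 4 (adjusted p 0.0911, 0.15 and 0.106) and *Psrc1* without experiment 1, 2 or 3 (0.12, 0.134 and 0.132). The median log2 change was 0.03 for the upstream genes and 0.07 for the further targets in PGK12.1, and -0.06 and 0.00 in WD44.

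Markers of other cells were measured on the same arrays. The 12 fibroblast (feeder) markers summed to 2.07 to 2.82 array means after *Kdm6a* RNAi and 2.03 to 2.80 in control cells of PGK12.1, and to 2.96 to 3.10 and 2.74 to 2.85 in WD44. *Lum* and *Postn* were under the minimum level. Of the 10 feeder markers tested, 1 rose in PGK12.1, *Loxl1* (0.25, adjusted p = 0.0234), beside 3.71% of all genes. The median log2 change of the feeder markers was -0.03, against 0.15 in WD44. In PGK12.1 the 4 trophoblast markers summed to 1.49, 1.58, 1.6 and 1.86 array means after *Kdm6a* RNAi. In control cells they summed to 1.70, 1.71, 1.74 and 1.97, so this sum was lower after *Kdm6a* RNAi in all 4 pairs of arrays. Most of this sum was *Tfap2c*, at a mean level of 1.19 over the 12 arrays. Its mean log2 change in PGK12.1 was -0.16 (lower in all 4 experiments, adjusted p = 0.0828). *Cdx2* (-0.22, 0.01, 0.13 and 0.01) and *Eomes* (0.04, -0.06, -0.03 and -0.19) had log2 changes in both directions in PGK12.1, and *Elf5* was under the minimum level. The 6 called p53 pathway genes, which were picked by a test on the same pairs, were higher in all 4. The 4 markers of primitive endoderm summed to 0.943, 0.931, 0.709 and 1.00 after *Kdm6a* RNAi and 1.03, 0.978, 0.75 and 0.978 in control cells, lower in experiments 1 to 3. Among them *Sox7* had log2 changes of -0.28, -0.32, -0.31 and -0.04 in PGK12.1 (mean -0.24, adjusted p = 0.0654, limma). The mean changes of *Gata4*, *Gata6* and *Sox17* were 0.02, 0.075 and -0.055. Of the trophoblast and primitive endoderm markers tested, none passed. The part of these markers, and of *Utf1*, in the changes of the p53 pathway genes was not tested. In bulk RNA, a changed share of cells and a changed level per cell cannot be told apart.

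The calls in PGK12.1 rested on 4 experiments and small changes, and leaving out 1 experiment ended several of them. Without experiment 1, 1 of the 6 remained past the threshold, *Trp53inp1*, with adjusted p-values of 0.0516 for *Eda2r*, 0.0646 for *Ccng1*, 0.0807 for *Plk2*, and 0.102 for both *Xpc* and *Gadd45a*. Without experiment 2, *Trp53inp1* and *Eda2r* remained, and *Zfp365* passed. Without experiment 3, *Trp53inp1*, *Eda2r* and *Xpc* remained, and without experiment 4, *Trp53inp1*, *Eda2r*, *Plk2* and *Gadd45a* did. Leaving out either WD44 experiment, which enters through the shared spread, gave adjusted p-values of 0.0631 for *Xpc* and 0.0678 for *Gadd45a* and kept the other 4 calls. *Trp53inp1* was past the threshold in 14 of 17 alternatives, *Eda2r* in 12, *Ccng1* and *Plk2* in 8 each, and *Xpc* and *Gadd45a* in 6 each. These alternatives are not independent. For the PGK12.1 effect, leaving out either WD44 experiment gives the same fit as the PGK12.1 arrays alone, since the WD44 pair left adds no spread.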

How the data were processed

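RNA of *Kdm6a* RNAi and control cells was measured in PGK12.1 (4 experiments) and WD44 (2 experiments), 1 array each. Per the submitters' processing notes, the authors used Affymetrix Expression Console and RMA to make the deposited log2 values. The sources used here name neither the versions nor the arrays that were normalized together. No further normalization was applied. The number of arrays limits the precision.

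Of 35556 probe sets, 21789 had 1 gene symbol in the platform annotation, 1621 had several and 12146 had no listed gene. Probe sets of a gene were averaged (999 genes), which gave 19938 genes. Of these, 15309 reached a mean linear value of 0.1 of the array mean and entered the tests. The level of a gene is its linear value over the mean of its array.

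Comparisons were fitted with limma 3.58.1 (R 4.3.3), with the experiment as a block, 1 spread for both lines (residual degrees of freedom 4, prior 5.66), adjusted by Benjamini-Hochberg over all tested genes, at a threshold of 0.05. The block follows the shared experiment number in the labels and the paired testing in the study's methods. Within experiments, deviations of paired arrays from their group means had correlations of 0.828, 0.846, 0.915 and 0.972 in PGK12.1, where the scale of the arrays raises them, and of 0.265 in both WD44 experiments by construction. The script was tested on simulated data. Promoters came from RefSeq (GRCm38.p6), and figures were drawn with matplotlib 3.10.9.

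The genes, lists and roles were chosen with earlier results of these data known. Named with values were every gene past the threshold, the 3 genes of each role with the smallest p in PGK12.1 and the 1 with the smallest in WD44, and called genes of the wider list. Values of the other genes are given in short. Alternatives changed the block, minimum level, moderation, scale, test and experiments used.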

Additional observations from a re-analysis of the deposited data

Results flagged for a closer look

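In PGK12.1, 90 groups of 4 values were examined for a value far from the other 3, namely the 30 log2 changes and the 60 sets of levels of the p53 pathway genes. None of the log2 changes and 5 of the levels stood apart in this way, and chance sets apart about 1 in 20 such groups. The array medians of experiment 4 lay near those of WD44 and apart from those of PGK12.1 experiments 1 to 3. In experiment 4 *Tnfrsf10b* had levels of 2.48 array means after *Kdm6a* RNAi and 2.33 in control cells, above the other 3 experiments of each condition. Among the PGK12.1 control arrays, that of experiment 4 also held the highest *Trp73* level (0.305) and the highest *Zmat3* level (1.23). *Pmaip1* had its highest level after *Kdm6a* RNAi in experiment 3 (0.70).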

How the results depend on the processing

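The count of 6 genes past the threshold in PGK12.1 was 0 with no replicate block, 0 by the methods' t-test, 2 with no minimum level (*Eda2r* and *Trp53inp1*), 1 in the double RNAi experiments only (*Trp53inp1*) and 0 in the single RNAi experiments only, which leave fewer samples, and 1 to 4 without 1 of the experiments. With a minimum of 0.25 of the array mean it was 9, with trend and robust moderation 9, with quantile normalization 5 and with the median difference set to 0 it was 6. Trend and robust moderation called 3 genes in the difference between the lines (*Ccng1*, *Mdm4* and *Trp53inp1*), and 0 in the other fits. Without the block the differences between arrays enter the spread. The cause of the other shifts was not tested.

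Over all genes, the 568 higher and 322 lower calls in PGK12.1 became 0 and 0 with no replicate block and by the methods' t-test, 270 and 182 with no minimum, 1101 and 546 with trend and robust moderation, 117 and 65 with double RNAi only, 43 and 58 with single RNAi only, and 198 to 396 and 152 to 211 without 1 PGK12.1 experiment. With a minimum of 0.25 there were 926 higher calls. In WD44 the calls were 2 higher and 10 lower with trend and robust moderation, and at most 1 in the other fits. In the difference they were 394 more positive and 160 more negative with trend and robust moderation, 178 and 89 with a minimum of 0.25, and at most 1 in the other fits. For double minus single RNAi, trend and robust moderation called 1. None of the 30 genes was called in WD44 or for double minus single RNAi in any fit run.

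In WD44, quantile normalization gave a median log2 change of 0.0154 over the 30 genes, 0.029 for apoptosis and survival, 0.0139 for repair and -0.0506 for metabolism. With all measured genes, or with the median difference set to 0, the apoptosis median was 0.02. Without 1 of its experiments, the WD44 medians were -0.025 to 0.00 over all 30, -0.17 to 0.00 for the core regulators, -0.01 to 0.035 for arrest, 0.00 for apoptosis, -0.025 to -0.015 for repair and -0.04 to -0.03 for metabolism. The PGK12.1 metabolism median was 0.02 (without experiment 3) to 0.0867 (without experiment 2). The median level was 1.19 array means, or 5.58 array medians. Leaving out experiments for the role groups, centring them and using the first promoter window were chosen after seeing the data.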
